A study of Mus musculus with 12 samples.

Results

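Paused mouse embryonic stem cells (ESC) were compared with paused mouse trophoblast stem cells (TSC) across all 1978 microRNAs (miRNAs) that the count files list. The comparison takes the 6 samples labelled paused out of 12 in all, 3 of each cell type. The replicate 3 file of each cell type repeated its replicate 2 file value for value. Counting each such pair once leaves 4 of the 8 distinct libraries of the series, 2 per cell type. Pausing was induced in culture by inhibiting mTOR, the kinase that couples nutrients to growth, and the remaining samples are the same cell types labelled WT, used here as controls. The ESC were of E14, a single laboratory line. The labels name neither the TSC line nor the inhibitor, its dose or the length of treatment. They also do not say whether the libraries came from separate cultures, so p-values measure the spread between these libraries, which may be technical.

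ESC are derived from the part of the early embryo that forms the fetus, and TSC from the layer that forms the placenta. Inhibition of mTOR slows both and is used as a culture model of diapause, the natural arrest of the early mouse embryo. A miRNA is a short RNA that guides the silencing machinery to messenger RNAs that pair with its seed, bases 2 to 8 counted from the 5′ end, so that miRNAs with the same seed can bind the same sites even when they come from different chromosomes. Many miRNAs are cut from shared precursors encoded in clusters. The miR-290-295 cluster is typical of mouse pluripotent and early placental cells, the miR-17-92 cluster and its relatives promote proliferation, and several clusters of imprinted loci are active from only the maternal or only the paternal chromosome.

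The sequences on which the comparison turns are given here as RefSeq lists them for build GRCm38, 5′ to 3′, with the seed in capitals. They are shown because the cell types often used different miRNAs with the same or a shifted seed. Of the 648 miRNAs detected in the series, 544 matched a RefSeq mature sequence, which covers 92.4% or more of each paused library's counts.

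The first set shares the seed AAAGUGC and comes from 3 clusters on 3 chromosomes.
miR-17-5p: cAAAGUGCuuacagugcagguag
miR-106a-5p: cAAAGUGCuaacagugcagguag
miR-20a-5p: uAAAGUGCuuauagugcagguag
miR-20b-5p: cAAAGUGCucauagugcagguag
miR-93-5p: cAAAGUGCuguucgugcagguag

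miR-19 and the miR-130/miR-301 family carry seeds that are shifted by 1 base and share the run GUGCAA.
miR-19a-3p: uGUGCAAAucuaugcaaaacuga
miR-130a-3p: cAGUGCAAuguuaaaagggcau
miR-301a-3p: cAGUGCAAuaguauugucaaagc
miR-130b-3p: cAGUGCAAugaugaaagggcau

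The seed AGCAGCA joins miR-322-5p of the X chromosome with members of the miR-15/miR-16 family.
miR-322-5p: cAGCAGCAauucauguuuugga
miR-15b-5p: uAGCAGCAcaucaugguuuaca
miR-497a-5p: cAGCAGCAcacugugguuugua

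The neighbouring hairpins miR-291a and miR-291b of the miR-290-295 cluster give near-identical products.
miR-291a-5p: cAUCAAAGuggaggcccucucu
miR-291b-5p: gAUCAAAGuggaggcccucucc
miR-291a-3p: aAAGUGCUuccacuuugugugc
miR-291b-3p: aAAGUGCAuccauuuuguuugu

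Depth was low for small RNA sequencing. The paused ESC libraries held 73574 and 61749 miRNA counts in total and the paused TSC libraries 23652 and 30487. A miRNA with 0 counts could still be present at up to 40.8 and 48.6 CPM (counts scaled to a common library total) in the paused ESC libraries and up to 127 and 98.4 CPM in the paused TSC libraries, the worth of 3 counts. Levels below are CPM after TMM scaling, which sets libraries to a common level by a trimmed mean of their fold differences, and fold changes are log2 of ESC over TSC from edgeR's quasi-likelihood fit, with an adjusted p under 0.05 taken as called.

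The pools of paused ESC and paused TSC were built on a common base, the miR-290-295 cluster, and differed in most of what was laid over it. Of 206 miRNAs with enough counts to test, 158 were called (76.7%), 77 higher in ESC (37.4%) and 81 lower in ESC (39.3%), so a call by itself was the usual outcome here. The median absolute log2 fold change was 2.67, and the median with sign was 0.01. Of the called miRNAs 119 differed by more than 2 on the log2 scale and 63 by more than 4, 37 of them higher in ESC and 26 higher in TSC. Counts summed over the libraries of a cell type were 3 or fewer for 42 of the 206 in TSC and for 19 in ESC, and 57 of the called miRNAs had more than 20 counts in each cell type. Of the 206, 71 reached the filter's minimum in fewer than 2 of the 4 TSC libraries of the series and 50 in fewer than 2 of the 4 ESC libraries. Such miRNAs were tested because they were high in the other cell type, so the counts of calls in lists made up of them are a description only. DESeq2 called 141 (68.4%), and the libraries of the cell types did not overlap for 187 (90.8%). Bulk counts of this kind cannot tell fewer cells of a type from less RNA per cell, and shares of a closed total cannot tell a gain of 1 cluster from a loss of the others.

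**Figure D1:**
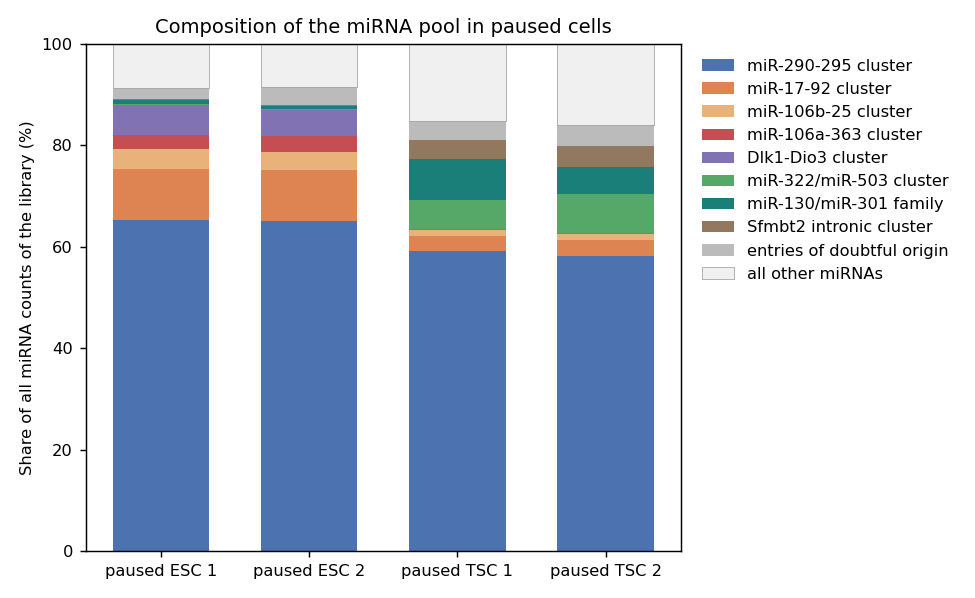
Stacked bars give the share of all miRNA counts, in percent, that each cluster or family took in each of the 4 paused libraries. The miR-290-295 cluster fills the lower part of every bar, the miR-17-92, miR-106b-25, miR-106a-363 and Dlk1-Dio3 clusters are thick only in ESC, and the miR-322/miR-503 and Sfmbt2 clusters and the miR-130/miR-301 family are thick only in TSC.

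The miR-290-295 cluster (chr7:3218626-3220841, opposite the exons of Nlrp12 in the GENCODE annotation) took 65.3% and 65.1% of counts in paused ESC and 59.1% and 58.1% in paused TSC. It supplied 9 of the 10 most abundant miRNAs of paused ESC and 7 of the 10 of paused TSC. All 7 of the latter were also among the 10 of ESC. miR-290a-5p, the most abundant single species of both TSC libraries, stood at 101891 and 102729 CPM in ESC and 131397 and 124378 CPM in TSC, a difference that was not called (log2 fold change -0.32 ± 0.29 SE). Its log2 fold change changed sign to 0.09 under median-of-ratios scaling, again without a call.

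The 3p products with the seed AAGUGCU, the seed by which this cluster is best known to act on cell-cycle inhibitors, differed little in total. miR-294-3p, miR-291a-3p and miR-295-3p with the miR-302 members of that seed held 19.7% and 22.4% of counts in ESC and 19.1% and 20.3% in TSC, so the libraries overlapped. None of the 5 tested miRNAs with this seed was called by edgeR. miR-294-3p stood at 84084 and 92319 CPM in ESC and 60387 and 56096 CPM in TSC, which edgeR did not call (adjusted p = 0.0579) and DESeq2 did (adjusted p = 2.18e-05).

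Within the cluster, 5 of 14 tested miRNAs were higher in ESC, a share close to the 37.4% of all tested miRNAs, and 2 were lower, with a median log2 fold change of 0.44. Scaling set the first count, which was 8 under median-of-ratios scaling, 8 with the cluster left out of TMM and 7 by total count, and it fell to 2 with 1 paused library left out. miR-293-5p was the clearest of the ESC-high members, at 45714 and 45633 CPM in ESC against 18310 and 19112 CPM in TSC (edgeR log2 fold change 1.29 ± 0.31 SE, adjusted p = 6.71e-05). miR-291a-5p stood at 119187 and 92350 CPM in ESC against 62165 and 53858 CPM in TSC, and its call ended without paused TSC replicate 2 (edgeR adjusted p = 0.124).

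The 2 members lower in ESC were both products of miR-291b. miR-291b-3p gave 5 and 11 counts in the ESC libraries and 533 and 382 in the smaller TSC libraries, or 116 ± 76 CPM against 16791 ± 7410 CPM (SD, n = 2 each). Its log2 fold change of -7.19 ± 0.46 SE was the largest negative one of any miRNA with more than 10 counts in each group (edgeR adjusted p = 3.07e-46). miR-291b-5p, chosen after its values were seen, stood at 623 and 1129 CPM in ESC against 11491 and 7802 CPM in TSC (log2 fold change -3.46 ± 0.37 SE). Its neighbour miR-291a went the other way for the 5p product, and the 3p product was not called (log2 fold change -0.28 ± 0.30 SE). As the printed sequences show, miR-291a-5p and miR-291b-5p differ at 2 of 22 bases (C1G and U22C, positions counted from the 5′ end, miR-291a base first) and share a seed. The 3p products differ at 4 bases, and U8A changes the last base of the seed from AAGUGCU to AAGUGCA. No label says how reads that match both hairpins were assigned, so the exact levels of these near-identical products are uncertain.

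The balance of the 2 arms of a hairpin, a ratio within a library that no scaling can move, also differed. For 6 hairpins both arms had at least 20 counts in every paused library, and for 5 of them the log2 ratio of 5p to 3p counts did not overlap between the cell types. miR-293 favoured its 5p arm in paused ESC (log2 ratio 0.58 and 0.24) and its 3p arm in paused TSC (-1.50 and -1.33). The ratio was also higher in paused ESC for miR-291a (0.74 ± 0.56 against -0.41 ± 0.16, SD), miR-295 (-1.98 ± 0.16 against -3.14 ± 0.08) and miR-296 (1.25 ± 0.38 against -0.15 ± 0.16). miR-292a differed by -0.18, and miR-294 overlapped. With 2 libraries against 2, the exact two-sided permutation test cannot go below p = 0.333, the value that each of the 5 gave. Control ESC had the 3p arm of miR-293 in excess (-1.08 and -0.95), as both TSC groups did.

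The seed AAAGUGC, borne by the proliferation-linked miR-17 relatives, was the more abundant in ESC. It held 5.27% and 5.88% of counts in paused ESC and 2.16% and 2.46% in paused TSC. The difference did not come from all of its members alike. miR-17-5p was the most abundant in both cell types of the members on chromosome 14 and stood at 12407 and 14309 CPM in ESC and 13557 and 15483 CPM in TSC, which overlap (log2 fold change -0.12 ± 0.31 SE). miR-20a-5p of the same precursor had 2332 and 3248 CPM in ESC against 744 and 998 CPM in TSC (edgeR log2 fold change 1.66 ± 0.39 SE, adjusted p = 5.64e-05). miR-93-5p had 10213 and 11169 CPM against 6572 and 5685 CPM, a call that ended without any 1 of 3 paused libraries (edgeR adjusted p = 0.144 without paused TSC replicate 2).

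The X-linked members of that seed made the sharpest contrast of the comparison. miR-20b-5p gave 1251 and 1163 counts in the paused ESC libraries (15600 and 17990 CPM) and 0 in both paused TSC libraries. Against a floor of 3 counts over the TSC libraries together it was at least 318-fold higher in ESC. miR-106a-5p gave 584 and 563 counts against 0 and 0 and was at least 151-fold higher. miR-106a-5p differs from miR-17-5p by a single base (A10U, miR-106a base first), and miR-17-5p gave 328 and 512 counts in the same TSC libraries. All 10 listed arms of this miR-106a-363 cluster (chrX:52741693-52742567, intergenic) were detected in paused ESC, with 2066 and 1941 counts in all, and none had a count in paused TSC. Its 4 tested members, which were all called, passed the filter through ESC, and miR-363-5p (117 and 93 counts against 0 and 0) and miR-363-3p (81 and 83 against 0 and 0) were at least 27.7-fold and 21.6-fold higher in ESC. The cluster stood at 2.78% and 3.20% of counts in control ESC and 0.0156% and 0.00534% in control TSC.

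The miR-17-92 cluster on chromosome 14 (chr14:115043671-115044506, exons of the host transcript Mir17hg) took 10.1% and 10.0% of counts in paused ESC and 2.94% and 3.22% in paused TSC. Of its 8 tested miRNAs 6 were higher in ESC and 1 was lower, against 37.4% and 39.3% of all tested miRNAs. The median log2 fold change was 1.63. Most of the share in ESC was miR-19a-3p, at 66028 and 66207 CPM against 10953 and 9526 CPM in TSC (edgeR log2 fold change 2.69 ± 0.33 SE, adjusted p = 2.8e-15). The libraries of each cell type lay close together and far from those of the other. miR-92a-3p, which has a further copy on the X chromosome and cannot be assigned to 1 locus, had 7794 and 8137 CPM against 1199 and 1633 CPM. The member that was lower in ESC was miR-17-3p (chosen after its values were seen), the partner strand of miR-17-5p, with 10 and 19 counts against 19 and 22 (log2 fold change -1.81 ± 0.46 SE), a call DESeq2 did not make (adjusted p = 0.0895).

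The third relative, miR-106b-25 (chr5:138165321-138165818, within Mcm7, which encodes a subunit of the replicative helicase), took 3.84% and 3.44% of counts in ESC and 1.21% and 1.13% in TSC. In ESC miR-25-3p carried most of it, at 24004 and 20295 CPM against 4505 and 3720 CPM in TSC (edgeR log2 fold change 2.43 ± 0.34 SE, adjusted p = 7.53e-12). In TSC miR-93-5p was the more abundant of the 2. miR-25-3p and miR-93-5p were the 2 of 5 tested members that were called, against 76.7% of all tested miRNAs. With the miR-290-295 cluster left out of TMM 4 of the 5 were called. Another pluripotency cluster, miR-302/miR-367, is known from later, primed pluripotent cells, and its miR-302b-3p and miR-302d-3p share the seed of miR-294-3p. The cluster was near 0, with 9 and 4 counts in paused ESC and 0 in paused TSC. Its 3 tested members passed the filter through control ESC and none was called.

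**Figure D2:**
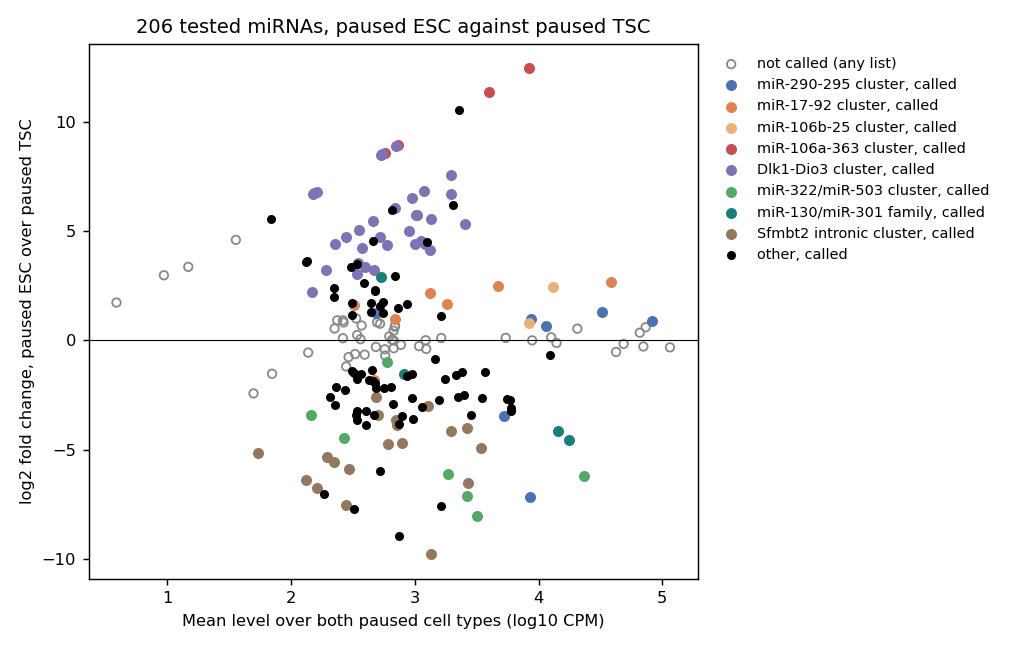
Each of the 206 tested miRNAs is placed by its mean level over both paused cell types (log10 CPM) and its log2 fold change of paused ESC over paused TSC, with open circles for those not called. The miR-106a-363 members lie at the top, the miR-322/miR-503 members and miR-291b-3p at the lower right, and most of the miR-290-295 cluster lies near 0 at the highest levels.

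Only 305.43 kb from the miR-106a-363 cluster on the X chromosome lies the miR-322/miR-503 cluster (chrX:53047997-53054349, intergenic), and it showed the opposite contrast. This cluster is known for restraint of the cell cycle. It took 0.160% and 0.147% of counts in paused ESC and 5.76% and 7.64% in paused TSC, a share 43.6 times as large in TSC. Of its 8 tested miRNAs 7 were lower in ESC, against 39.3% of all tested miRNAs, and none was higher. The median log2 fold change was -5.31, and 7 of the 8 had passed the filter through TSC.

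miR-322-5p carried most of the share in TSC, with 46 and 43 counts in the ESC libraries against 992 and 1690 in the smaller TSC libraries. This is 619 ± 65 CPM against 46054 ± 7144 CPM (SD, n = 2 each), a log2 fold change of -6.21 ± 0.39 SE (edgeR adjusted p = 1.10e-47). It ranked among the 10 most abundant miRNAs of paused TSC. miR-503-5p gave 2 and 1 counts in ESC against 120 and 252 in TSC, a ratio of the pooled shares of 314 with a 95% counting interval from 106 to 1528. miR-351-5p gave 2 and 3 counts against 132 and 165 (log2 fold change -7.12 ± 0.54 SE). All libraries of paused TSC lay above those of paused ESC for these members.

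The seed AGCAGCA of miR-322-5p is also that of miR-15b-5p and miR-497a-5p, and these ran the other way. miR-15b-5p, encoded in an intron of Smc4, had 1397 and 1052 CPM in ESC against 83 and 212 CPM in TSC (edgeR log2 fold change 2.96 ± 0.49 SE, adjusted p = 7.78e-09). miR-497a-5p had 324 and 433 CPM against 41 and 91 CPM (edgeR log2 fold change 2.38 ± 0.71 SE, adjusted p = 0.00124). In total the seed held 0.279% and 0.241% of counts in ESC and 4.21% and 5.58% in TSC, so miR-322-5p set the sum. miR-351-5p likewise shares the seed CCCUGAG with miR-125a-5p, which had 636 and 866 CPM in ESC against 3720 and 4717 CPM in TSC, and that seed held 0.0720% and 0.0955% against 0.939% and 1.05%.

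The miR-130/miR-301 family was the other abundant group of TSC. Of its 5 tested members 3 were lower in ESC, against 39.3% of all tested miRNAs. Of the other members 1 was higher (log2 fold change 2.92), against 37.4% of all tested, and 1 was not called. The family's seed AGUGCAA held 0.533% and 0.460% of counts in paused ESC and 7.94% and 5.21% in paused TSC. miR-301a-3p, from an intron of Ska2, stood at 1546 and 1485 CPM in ESC and 27404 and 27065 CPM in TSC (edgeR log2 fold change -4.16 ± 0.36 SE, adjusted p = 9.22e-28). miR-130a-3p had 1546 and 1330 CPM in ESC but 48566 and 19535 CPM in TSC, so its TSC libraries lay far apart while both stayed above ESC (edgeR log2 fold change -4.56 ± 0.37 SE, adjusted p = 2.09e-31). miR-130b-3p did not differ beyond its spread, at 1796 and 1578 CPM against 1695 and 1452 CPM (log2 fold change 0.11 ± 0.38 SE).

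The related seed GUGCAAA of miR-19a-3p and miR-19b-3p, printed above beside the miR-130/miR-301 sequences, ran opposite to it, with 7.26% and 6.97% of counts in ESC and 1.14% and 1.05% in TSC. Summed, they held 7.79% and 7.43% of counts in ESC and 9.08% and 6.26% in TSC, values that overlap. Of the 5 pairs of seeds shifted by 1 base that were summed in this way, after their values were seen, this was the one whose libraries overlapped. AAGUGCU with AAAGUGC held 25.0% and 28.3% in ESC against 21.2% and 22.7% in TSC, AAGUGCA with AAAGUGC 5.28% and 5.90% against 4.41% and 3.71%, AGUGCAA with CAGUGCA 0.652% and 0.578% against 8.04% and 5.35%, and AGUGCAA with AAGUGCA 0.540% and 0.478% against 10.2% and 6.47%.

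Across the 20 seeds that 2 or more tested miRNAs shared, 15 had 2 or more called members. In 9 of the 15 the called members all ran in 1 direction and in 6 they ran in both. Calls covered 76.7% of all tested miRNAs, 37.4% higher and 39.3% lower in ESC, so these counts are a description only. The 6 include, besides AGCAGCA and AUCAAAG, the seed UCACAGU of miR-27a-3p (1210 and 1346 CPM in ESC against 3679 and 3296 CPM in TSC) and miR-27b-3p (1534 and 1098 CPM against 372 and 454 CPM), which differ by the single base C19U (miR-27a base first). For AUUGCAC, miR-25-3p, miR-92a-3p and miR-363-3p were higher in ESC while miR-32-5p (chosen after its values were seen) was lower, at 224 and 263 CPM against 2149 and 1935 CPM.

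**Figure D3:**
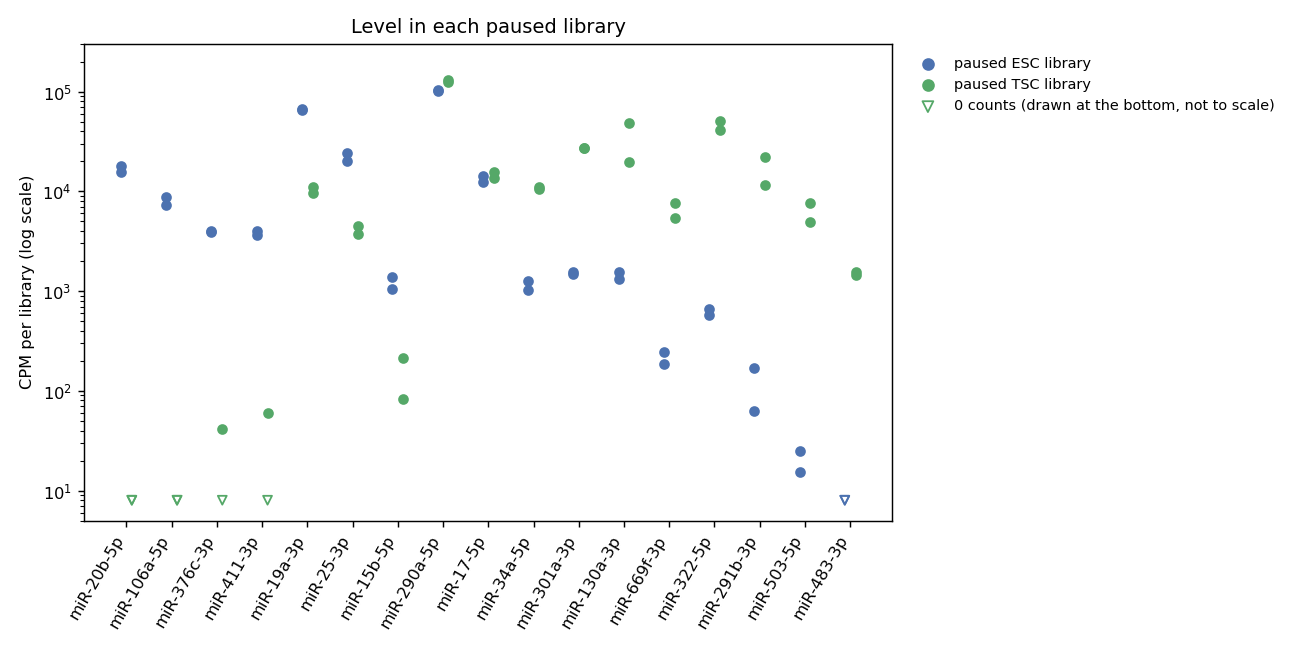
Points give the CPM of 17 miRNAs in each paused library on a log scale, ESC in blue and TSC in green, with open triangles at the bottom for libraries with 0 counts. From left to right the miRNAs go from those higher in ESC (miR-20b-5p) through miR-290a-5p and miR-17-5p, where the groups lie together, to those higher in TSC (miR-322-5p, miR-503-5p, miR-483-3p).

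The imprinted clusters split by cell type. All 33 tested miRNAs of the Dlk1-Dio3 cluster (chr12:109563692-109747960), which is expressed from the maternal chromosome and whose silencing in stem cell lines is known to limit their developmental potential, were higher in paused ESC. Of all tested miRNAs 37.4% were higher in ESC. The count of 33 is largely set by the filter, since 32 of the 33 reached its minimum in fewer than 2 TSC libraries. For 25 the paused TSC libraries summed to 3 counts or fewer. A further 55 miRNAs of the cluster were detected in paused cells but too low to test. For 29 of these both ESC libraries lay above both TSC libraries, for 25 the libraries overlapped and for 1, miR-376a-3p, TSC lay above ESC, with 1 and 0 counts in ESC against 8 and 1 in TSC (pooled ratio 22.8 with a 95% counting interval from 3.15 to 998). The TSC libraries were shallower, so the 29 include miRNAs too low in ESC to be seen in TSC at the same level. An example is miR-412-5p, with 1 and 1 counts in ESC against 0 and 0. The 29 are thus a description only. The cluster took 5.99% and 5.28% of counts in ESC (4408 and 3260 counts) and 0.233% and 0.200% in TSC (55 and 61 counts). Its median log2 fold change was 5.07, or 4.40 with the members at 0 in TSC set to their lower bounds, and its members ranged from 2.20 to 8.88.

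Among its most abundant members, miR-376b-3p gave 420 and 304 counts in ESC against 3 and 4 in TSC (4970 ± 378 CPM against 122 ± 2 CPM), a log2 fold change of 5.31 ± 0.52 SE with an edgeR adjusted p of 1.78e-22. miR-376c-3p gave 312 and 256 counts against 1 and 0, a pooled ratio of 225 with a 95% counting interval from 40.1 to 8885. miR-411-3p gave 324 and 238 counts against 0 and 2, a ratio of 111 (interval 30.6 to 920). miR-494-3p, miR-154-3p and miR-134-5p, the last from an exon of Mirg, a transcript of this locus, had between 68 and 118 counts per ESC library and 0 in TSC, and were at least 26.9-fold, 21.0-fold and 20.2-fold higher in ESC. No library of paused TSC reached a library of paused ESC for any of the 33 tested. The same held for 90.8% of all tested miRNAs, and 32 of the 33 had passed the filter through ESC.

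The second large imprinted group ran the opposite way. The Sfmbt2 list holds the families numbered miR-669, miR-467, miR-466 and miR-297, repeated many times in an intron of Sfmbt2 (chr2:10370510-10595253), a Polycomb gene expressed from the paternal chromosome in trophoblast. In the GENCODE annotation 71 of 81 hairpin genes with these names lie inside Sfmbt2 and 10 lie elsewhere, so a name does not fix the locus, and near-identical copies may share reads. Of its 20 tested members 19 were lower in ESC, against 39.3% of all tested miRNAs, and none was higher. Of the 20, 8 had passed the filter through TSC. Of 17 detected members that were too low to test, 13 had both TSC libraries above both ESC libraries and 4 overlapped. The list took 0.190% and 0.177% of counts in paused ESC and 3.77% and 4.11% in paused TSC, a share 21.5 times as large in TSC, and its median log2 fold change was -4.82.

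miR-669f-3p gave 15 and 16 counts in ESC against 131 and 255 in TSC (217 ± 43 CPM against 6563 ± 1624 CPM, edgeR log2 fold change -4.91 ± 0.42 SE, adjusted p = 4.69e-28). miR-669c-5p gave 7 and 1 against 139 and 164 (log2 fold change -6.54 ± 0.51 SE), and miR-467e-5p 27 and 18 against 121 and 164. miR-297c-5p gave 0 and 0 counts against 100 and 43 and was at least 121-fold lower in ESC. The TSC libraries of miR-297c-5p differed from each other, at 4133 and 1300 CPM, by more than those of miR-467e-5p, at 5001 and 4959 CPM.

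Of 5 tested members of other imprinted loci 4 were lower in ESC, against 39.3% of all tested miRNAs. miR-483-3p, from an intron of the paternally expressed growth factor gene Igf2, gave 0 and 0 counts in ESC and 35 and 51 in TSC, at least 72.5-fold lower. miR-335-5p, from an intron of Mest, stood at 885 and 1021 CPM in ESC against 5828 and 6199 CPM in TSC (edgeR log2 fold change -2.66 ± 0.37 SE, adjusted p = 4.73e-12). miR-298-5p, from the imprinted Gnas region, had 586 and 356 CPM against 6283 and 4052 CPM. Its neighbour miR-296-5p had 935 and 1021 CPM against 1240 and 1119 CPM and was not called (log2 fold change -0.27 ± 0.38 SE), while miR-296-3p was (log2 fold change -1.64 ± 0.39 SE), though not by DESeq2 (adjusted p = 0.0522).

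**Figure D4:**
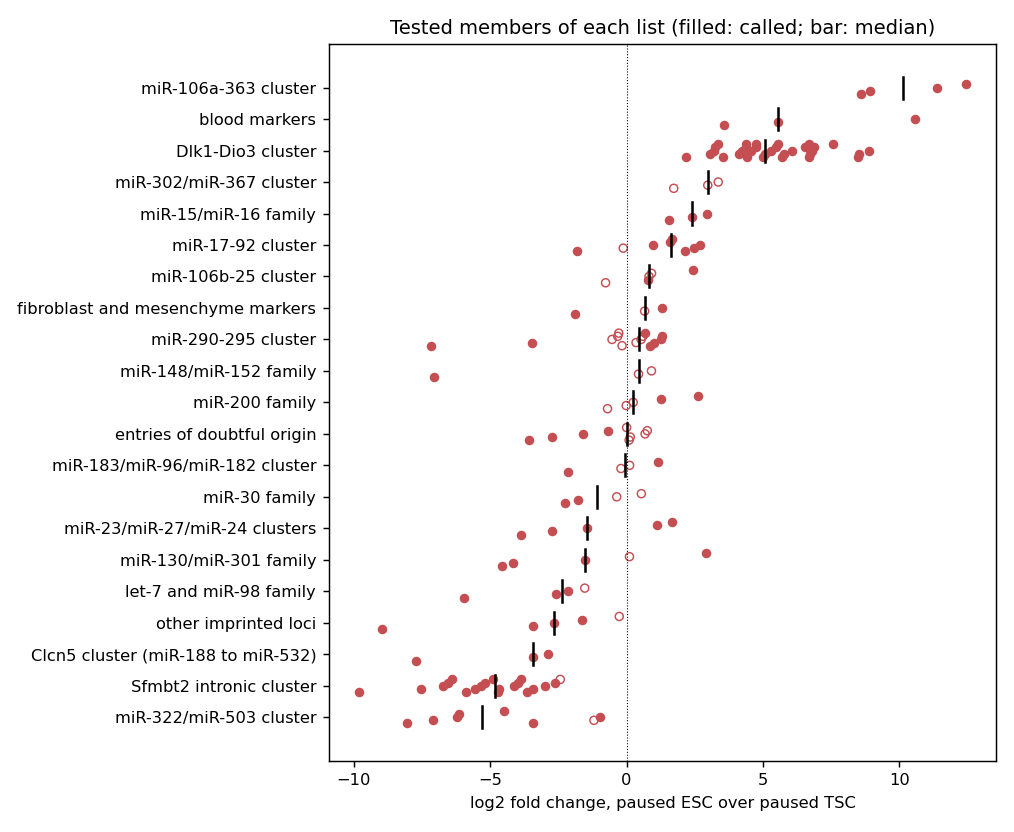
Each point is a tested member of a list with at least 3 tested members, placed by its log2 fold change of paused ESC over paused TSC, filled where called, with a bar at the list's median. All 33 Dlk1-Dio3 members lie to the right of 0 and all 20 Sfmbt2 members to the left, while the miR-290-295 cluster sits around 0 apart from the miR-291b products.

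Smaller families were called in either direction, where 37.4% of all tested miRNAs were higher and 39.3% lower in ESC. Of 4 tested let-7 members, whose family restrains Lin28 and is kept low in pluripotent cells, 3 were lower in ESC, all 4 having passed the filter through TSC, and let-7e-5p gave 0 and 2 counts against 18 and 44. Both tested miR-29 members were lower in ESC, with miR-29a-3p at 561 and 727 CPM against 3679 and 3992 CPM, though miR-29c-3p was not called by DESeq2 (adjusted p = 0.0828). Both arms of miR-34a, a target of p53, were lower in ESC. miR-34a-5p stood at 1023 and 1268 CPM against 10457 and 10977 CPM (edgeR log2 fold change -3.23 ± 0.36 SE, adjusted p = 1.28e-17). miR-21a-5p had 1434 and 1531 CPM against 7440 and 11763 CPM, and miR-210-3p, induced by low oxygen, 75 and 186 CPM against 1653 and 1240 CPM. All 3 tested miRNAs of the Clcn5 cluster of the X chromosome (chrX:7237683-7248497), which passed the filter through TSC, were lower in ESC, led by miR-188-5p with 0 and 0 counts against 18 and 18, at least 30.4-fold lower. All 3 tested members listed as miR-15/miR-16 were higher in ESC, through which they had passed the filter.

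The paralogous miR-23/miR-27/miR-24 clusters divided by locus. miR-23a-3p of chromosome 8 had 1671 and 1377 CPM in ESC against 11119 and 9344 CPM in TSC (edgeR log2 fold change -2.74 ± 0.35 SE, adjusted p = 7.87e-14), and miR-27a-3p of that cluster was also lower. miR-23b-3p had 2157 and 2320 CPM against 951 and 1119 CPM and was higher in ESC with miR-27b-3p, though the call of miR-23b-3p ended without paused TSC replicate 1 (edgeR adjusted p = 0.0564) and also without paused ESC replicate 2.

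Of 10 tested miRNAs listed for epithelial cells 5 were called, in either direction, against 76.7% of all tested miRNAs. In the miR-200 family 2 of 5 tested members were higher in ESC, miR-200b-3p at 611 and 712 CPM against 124 and 91 CPM and miR-429-3p at 898 and 650 CPM against 496 and 181 CPM, whose call ended without paused TSC replicate 2 (edgeR adjusted p = 0.308). miR-200c-3p (chosen after its values were seen), miR-141-3p and miR-200a-3p were not called. miR-203-3p, an epidermal miRNA, had 150 and 155 CPM against 537 and 514 CPM, a call that DESeq2 did not make (adjusted p = 0.0542). In the miR-183/miR-96/miR-182 cluster 1 of 4 tested members was higher in ESC and 1 was lower, and DESeq2 called neither. miR-183-5p, its most abundant member, had 5412 and 5847 CPM against 4712 and 5685 CPM and overlapped.

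In the remaining lists 5 of 11 tested members were called, all lower in ESC. Of all tested miRNAs 76.7% were called and 39.3% were lower. For miR-30, 2 of 4 were lower in ESC, with miR-30b-5p at 860 and 696 CPM against 2356 and 3024 CPM. For miR-148/miR-152, 1 of 3 was lower, miR-152-3p with 0 and 0 counts against 4 and 19 (at least 19.4-fold lower), while miR-148a-3p and miR-148b-3p were not called, though both were called higher in ESC under median-of-ratios scaling and with the miR-290-295 cluster left out of TMM. Both tested members of the miR-99/miR-100 and miR-125 family were lower. miR-26b-5p (387 and 526 CPM against 124 and 302 CPM) and miR-181c-5p (811 and 882 CPM against 331 and 726 CPM) were not called, and miR-221/miR-222 had no tested member.

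Some miRNAs outside these clusters were large. miR-33-5p, from an intron of the sterol regulator gene Srebf2, gave 0 and 2 counts in ESC against 119 and 52 in TSC, a pooled ratio of 216 with a 95% counting interval from 59.0 to 1800. miR-1949 gave 314 and 265 counts in ESC against 0 and 3 in TSC, a ratio of 76.3 (interval 26 to 371). miR-22-3p, chosen after its values were seen, stood at 1297 and 1176 CPM in ESC against 9755 and 11794 CPM in TSC.

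miR-150-5p gave 380 and 279 counts in ESC against 0 and 0 and was at least 86.8-fold higher. It is best known from lymphocytes and stood on the list of blood markers, with miR-142a. All 3 tested miRNAs of that list, which passed the filter through ESC, were higher there, against 37.4% of all tested miRNAs. That count is a description only. The whole list had 422 and 300 counts in paused ESC against 1 and 0 in paused TSC. Of its 14 listed miRNAs 9 were at 0 in all 4 paused libraries, among them miR-223-3p and miR-451a, which define myeloid and red blood cells. miRNAs of fibroblasts, the usual feeder cells of stem cell cultures, took 0.235% and 0.204% of counts in ESC and 0.207% and 0.148% in TSC, ranges that overlap, and 10 of 21 were at 0 in all 4 libraries, among them miR-199a-3p. Of its 3 tested miRNAs miR-143-3p was higher in ESC until paused TSC replicate 2 was left out (edgeR adjusted p = 0.387), miR-140-3p was lower until paused TSC replicate 1 was left out (edgeR adjusted p = 0.0780), and miR-140-5p was not called. Among the untested members of that list, miR-145a-5p gave 26 and 15 counts in ESC against 0 and 0 in TSC (at least 5.40-fold higher) and miR-145a-3p 9 and 1 against 0 and 0. Markers of muscle gave 0 and 1 counts in ESC and 0 and 1 in TSC, those of neurons 4 and 3 against 3 and 3, and those of liver and islets 0 in every paused library.

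Entries whose sequences resemble ribosomal, transfer or repeat RNA took 2.16% and 3.61% of counts in paused ESC and 3.70% and 4.16% in paused TSC. Of 9 tested, 4 were lower in ESC and none was higher under TMM, where 39.3% of all tested miRNAs were lower and 37.4% higher. Under median-of-ratios scaling 3 were higher and 3 lower, and with the miR-290-295 cluster left out of TMM 2 were higher and 2 lower. miR-2137, at 6335 and 12514 CPM in ESC against 14219 and 15906 CPM in TSC, lost its call without paused ESC replicate 1 (edgeR adjusted p = 0.543). Their part in other differences was not tested.

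The same contrast between control ESC and control TSC shares no library with the paused one and served to show where pausing moved the difference. In the controls 153 miRNAs were called (74.3%), 69 higher in ESC (33.5%) and 84 lower (40.8%). The sign of the fold change was the same in both states for 181 of 206 miRNAs. Of the 126 called in both states, 123 had the same sign and 3 had opposite signs. A further 32 were called only when paused and 27 only in controls. These counts do not test a change, and the test of the change itself, the interaction of cell type and pausing, called 54 miRNAs (26.2%), with ESC minus TSC larger when paused for 30 (14.6%) and smaller for 24 (11.7%). The direction split depended on scaling, since scaling by total count gave 17 and 40. The median absolute difference was 2.67 between paused cells and 2.10 between controls.

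In the Sfmbt2 list the change was called for 15 of 20 tested members, against 11.7% of all tested miRNAs in that direction, all with a lower ESC value relative to TSC when paused. The list had 2.36% and 2.80% of counts in control ESC against 4.05% and 3.95% in control TSC, so the TSC share was alike in both states and the ESC share was smaller when paused. miR-466f-3p shows it, at 3464 and 3451 CPM in control ESC, 4229 and 4454 CPM in control TSC, 212 and 201 CPM in paused ESC and 3472 and 3931 CPM in paused TSC (change of the log2 difference -3.82 ± 0.56 SE, edgeR adjusted p = 9.14e-10). The control cell types lay close together for this miRNA, and only paused ESC stood apart.

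In the Dlk1-Dio3 cluster the change was called for 10 of 33, all with a larger ESC excess when paused, against 14.6% of all tested miRNAs in that direction. Of the 6 of these that are named by rule DESeq2 called only miR-376b-3p, and 5 of the 6, miR-376b-3p included, lost the edgeR call without control TSC replicate 1. The share in TSC was 0.442% and 0.459% in controls and 0.233% and 0.200% when paused. The X-linked contrasts were also present in controls. miR-322-5p stood at 456 and 895 CPM in control ESC and 118662 and 98292 CPM in control TSC (change 1.16 ± 0.53 SE, edgeR adjusted p = 0.0822). miR-301a-3p and miR-130a-3p both differed more when paused (change -1.75 ± 0.46 SE and -1.90 ± 0.47 SE), though the change of miR-130a-3p was not called by DESeq2 (adjusted p = 0.130) or without paused TSC replicate 1 (edgeR adjusted p = 0.134).

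The largest change was that of miR-1949, at 638 and 511 CPM in control ESC, 701 and 482 CPM in control TSC, 3916 and 4099 CPM in paused ESC, and 0 and 91 CPM in paused TSC (change 6.30 ± 0.82 SE, edgeR adjusted p = 5.27e-12). miR-3473b, one of the entries of doubtful origin, changed direction. In controls it stood at 3373 and 4346 CPM in ESC against 446 and 2949 CPM in TSC. When paused it stood at 125 and 170 CPM in ESC against 1695 and 1875 CPM in TSC. Of the 9 tested entries of doubtful origin the change was called for 7, against 26.2% of all tested miRNAs. In 6 of the 7 the log2 fold change was lower in controls, a direction called for 14.6% of all tested miRNAs. When paused it lay between -0.68 and 0.76 for these 6. miR-5126, for example, had 15814 and 12142 CPM in control ESC against 71095 and 64404 CPM in control TSC, and 9714 and 16753 CPM against 11656 and 12368 CPM when paused.

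**Figure D5:**
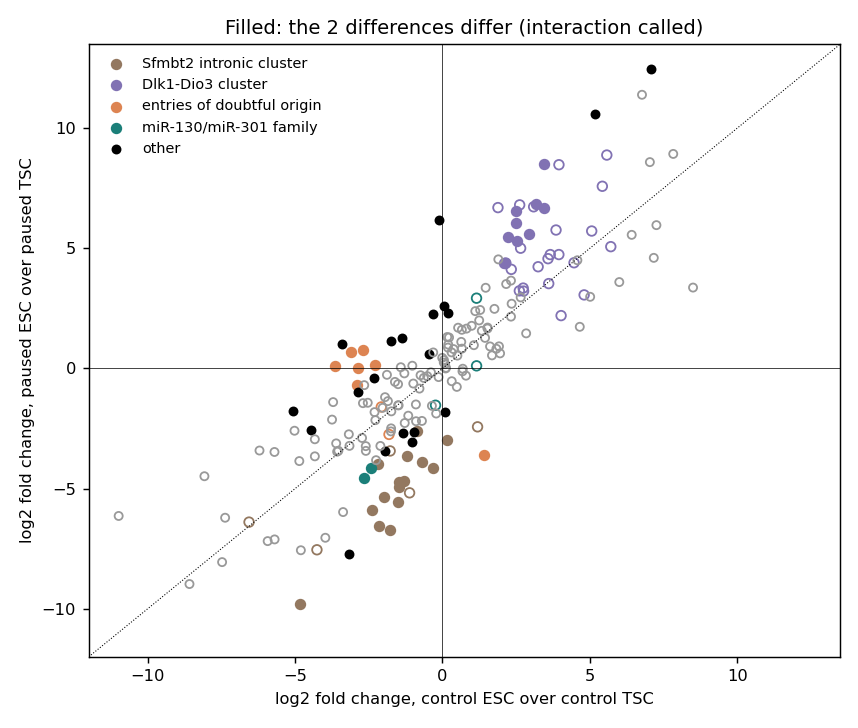
Each tested miRNA is placed by its log2 fold change of ESC over TSC in controls (horizontal) and when paused (vertical), filled where the change between the states was called, with a dotted line where both are equal. Filled Sfmbt2 members lie below the line, filled Dlk1-Dio3 members above it, and most entries of doubtful origin lie near 0 on the paused axis but between -4 and -2 on the control axis.

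Of the 158 paused calls, 125 held with the same sign under all 14 alternatives tried, 64 higher in ESC and 61 lower, 23 ended when 1 paused library was left out, and none changed sign.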

How the data were processed

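Small RNA libraries were made from 10 ng of RNA with the SMARTer smRNA-seq kit and sequenced single-end, per the labels' protocols. The files deposited by the authors hold raw counts per mature miRNA, made on GRCm38 (per the submitters' processing notes). No source used here says how reads were aligned and counted, which release of miRNA names was used or how reads with several matches were treated. The paused comparison, the miRNA lists, the rules and the tests were chosen with earlier results of these data known, so no list counts as independent evidence.

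Here the 8 distinct libraries (13607 to 115492 counts) entered 1 edgeR 4.0.16 quasi-likelihood fit in R 4.3.3 with 1 mean per group, TMM scaling and filterByExpr (10 counts at the median depth, about 369 CPM, in at least 2 libraries), which kept 206 miRNAs that cover 98.1% or more of each library. The coefficient of variation was 21.3%, with 4 residual degrees of freedom. The prior degrees of freedom were infinite, so the spread was fully shared across miRNAs. An edgeR SE or p-value thus does not widen for a miRNA whose own libraries lie far apart. Contrasts were paused ESC minus paused TSC, the same for controls, and their difference, each with Benjamini-Hochberg adjustment over the 206 at 0.05, two-sided. The fit was checked on simulated counts. SE is the fold change over the square root of F. Shares and arm ratios were compared by exact permutation. Where a group had 0 counts, fold is a bound against 3 counts over that group, and with 1 to 3 counts the ratio of pooled counts has an exact 95% interval. Intervals and floors cover counting error only. GENCODE vM21 gave host genes.

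Named miRNAs are the 12 highest and 12 lowest called fold changes with a mean of at least 500 CPM and no overlap, the 10 most abundant of each paused group, up to 4 of each list, and the 5 lowest adjusted p of the interaction in each direction, and others are marked where named. Deviations of same-numbered libraries showed little correlation (0.01 between paused groups). With 2 libraries per group this does not settle whether the numbers pair libraries. Alternatives were DESeq2 1.42.0, other scalings and filters, every file as a library, only the paused groups, a replicate block, a fold minimum of 1.5, and each library left out.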

Additional observations from a re-analysis of the deposited data

Results flagged for a closer look

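The values below are changes of the log2 difference between ESC and TSC from control to paused cells, for miRNAs named by rule whose change was called by edgeR's quasi-likelihood test; a negative value means a lower ESC level relative to TSC when paused. There were 33 such miRNAs, 20 positive and 13 negative. DESeq2 called 16 of them, 14 held with each of the 8 libraries left out in turn, and 10 held under all 17 alternatives of this contrast. These 10 are miR-1949 (6.30), miR-712-5p (3.80), miR-6240 (2.88), miR-5126 (2.41), miR-2137 (2.21), miR-466g (-3.13), miR-669f-3p (-3.43), miR-466f-3p (-3.82), miR-669c-5p (-4.38) and miR-3473b (-5.01). They include entries of doubtful origin, whose sequences resemble ribosomal, transfer or repeat RNA, among them miR-6240, miR-5126, miR-2137 and miR-3473b.

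Of the Sfmbt2 and miR-130/miR-301 members, miR-467e-5p (-1.80) and miR-301a-3p (-1.75) held with every library left out but not with the miR-290-295 cluster left out of TMM or the filter at 10 CPM. miR-130a-3p (-1.90) lost the call without paused TSC replicate 1 and with DESeq2. In the Dlk1-Dio3 cluster the changes were miR-337-3p (4.04), miR-379-3p (3.67), miR-411-3p (3.24), miR-376b-3p (2.79) and miR-495-3p (2.63). Of these miR-337-3p held with every library left out (highest edgeR adjusted p = 0.0444, without paused TSC replicate 1) but not with DESeq2 (adjusted p = 0.0732). The others lost the call without control TSC replicate 1, and of these DESeq2 called miR-376b-3p. All of them except miR-376b-3p also lost it without paused TSC replicate 1.

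miR-20b-5p (5.40), miR-150-5p (5.38) and miR-154-3p (5.06, of the Dlk1-Dio3 cluster) have 0 counts in paused TSC, and miR-297c-5p (-4.96) and miR-188-5p (-4.58) have 0 in paused ESC, so these fitted values are no measure of size. DESeq2 called none of the 5. The first 3 calls ended without control TSC replicate 1 or either paused TSC library, and those of miR-150-5p and miR-154-3p also without control ESC replicate 2. The call of miR-297c-5p ended without control ESC replicate 2, paused ESC replicate 1 or paused TSC replicate 1. That of miR-188-5p held in only 1 of the 8 runs with a library left out. The remaining positive changes were miR-26b-5p (4.40), miR-203-3p (3.30), miR-96-3p (2.92), miR-429-3p (2.66), miR-200b-3p (2.58), miR-29a-3p (1.87) and miR-294-3p (1.06). The remaining negative ones were miR-335-5p (-1.70), miR-298-5p (-1.49) and miR-21a-5p (-1.37). Of these 10, miR-429-3p kept its call with every library left out (highest edgeR adjusted p = 0.0490, without paused TSC replicate 2) but not with DESeq2 (adjusted p = 0.0961).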

How the results depend on the processing

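Between paused cells 77 miRNAs were higher in ESC and 81 lower, and a filter at 10 CPM, which tests 486 miRNAs, gave 127 and 102. The other alternatives kept both counts within 1.5 times, and leaving out 1 paused library gave 69 to 72 higher and 75 to 79 lower (146 to 151 in all). The median fold change of all tested miRNAs shifted by 0.40 on the log2 scale under median-of-ratios scaling (89 higher, 76 lower) and by 0.67 with the miR-290-295 cluster left out of TMM (90 and 68). For the change with pausing, 54 calls (30 positive, 24 negative) became 24 with DESeq2 (9 and 15), 30 with no filter (15 and 15) and 89 with every file counted as a library (52 and 37), total-count scaling gave 17 and 40, and the 10 CPM filter gave 9 negative calls. Leaving out 1 library gave 34 to 69 calls, 16 to 44 positive and 16 to 32 negative. The lowest total came without control ESC replicate 2 or paused TSC replicate 1, and the positive count also fell below 20 without control TSC replicate 1 (19) or paused TSC replicate 2 (18). Between controls, 84 lower in ESC became 52 with DESeq2 and 55 to 88 with 1 library left out, the lowest without control ESC replicate 2. Causes were not tested. The replicate block gave 156 paused calls (76 higher, 80 lower), 146 control calls and 45 changes. No label says what libraries with the same number share. Of the 109 named miRNAs that were tested, 79 were called, 16 lost the call in at least 1 alternative, 16 gained one and none reversed. The 13 shares by list and 8 by seed that were checked kept their direction outside the miR-290-295 cluster. For miR-148/miR-152 the mean shares of all counts were nearly equal, 0.1189% in paused ESC and 0.1191% in paused TSC. Outside the cluster they were 0.342% and 0.287%.

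Depth limits low miRNAs most: 42 of 206 rest on 3 or fewer counts in paused TSC and 19 in paused ESC, and no share can reach an exact p below 0.333.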
